A study of Homo sapiens with 2 samples.

Results

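The brain-derived neurotrophic factor gene BDNF, the related ligand genes NTF3 and NTF4, the Trk receptor genes NTRK2 and NTRK3, the p75 neurotrophin receptor gene NGFR and the sorting receptor genes SORT1 and SORL1 were examined after SUN2 knockdown in HCT116 cells. These 8 genes were chosen by name, and every probe set with 1 of these gene symbols was taken, dim ones included. Probe sets with 1 symbol were held for 6 of the 8 genes, 24 of 44988 such probe sets on the array. NTF3 and SORT1 were not analysed here.

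HCT116 is an established human colorectal carcinoma line. Expression was measured on 1 Affymetrix PrimeView array in each of 2 groups. The control cells carried a scrambled hairpin, and the knockdown cells carried the hairpin shSUN2-1 against SUN2, an inner nuclear membrane protein that links the nucleus to the cytoskeleton. Both groups were grown in serum-supplemented DMEM, and the knockdown rests on 1 hairpin in 1 line. With 1 array per group no test was possible, and no value below has a replicate, an SD between cultures or a p-value.

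Neurotrophins are made as precursors that proprotein convertases such as furin cleave, and the mature dimers bind Trk receptor tyrosine kinases. BDNF and neurotrophin 4 bind TrkB, the product of NTRK2, and neurotrophin 3 binds TrkC, the product of NTRK3. The precursors bind the p75 receptor together with sortilin, and SORL1 encodes a sortilin relative that carries cargo between the Golgi and endosomes. BDNF has several promoters, each with its own leading exon spliced to a shared coding exon, and the cyclic AMP response element binding protein CREB acts on some of them.

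RefSeq lists 5 promoter windows for BDNF in GRCh38.p14, all on the minus strand of chromosome 11. The 250 bases before each start were searched on both strands for the E-box CACGTG and for the cyclic AMP response element core TGACG, whose reverse complement is CGTCA. The windows below are the 2 of the 5 that hold either motif, and they are shown because BDNF is the member with a difference to describe. Both are written 5′ to 3′ with the match in capitals, and they lie at chr11:27720780-27721029 and chr11:27701622-27701871.
BDNF window 2: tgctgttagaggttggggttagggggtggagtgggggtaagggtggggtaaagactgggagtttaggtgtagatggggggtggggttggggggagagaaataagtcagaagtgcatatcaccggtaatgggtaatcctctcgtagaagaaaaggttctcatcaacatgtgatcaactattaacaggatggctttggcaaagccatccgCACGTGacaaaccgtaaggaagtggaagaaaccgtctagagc
BDNF window 4: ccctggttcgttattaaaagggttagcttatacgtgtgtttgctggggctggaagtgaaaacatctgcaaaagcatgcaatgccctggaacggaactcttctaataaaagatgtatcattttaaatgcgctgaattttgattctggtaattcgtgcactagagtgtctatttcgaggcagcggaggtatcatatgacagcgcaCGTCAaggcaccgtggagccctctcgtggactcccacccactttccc

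The E-box in window 2 began 42 bases before the start, and the CRE core in window 4 began 47 bases before it. Of 35116 windows of the same length over all genes, 6.34% held CACGTG and 21.2% held TGACG on either strand. The full element TGACGTCA, which contains the core, was in 1.65% of all windows and in 0 of the 5 BDNF windows. These letters describe the sequence only. The probe sets are not assigned here to a promoter, so the array values below do not say which one was used.

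SUN2, the targeted gene, read 498 in control cells and 407 in knockdown cells at its brightest probe set, 81.8% of the control value. All SUN2 probe sets were lower, at 75.4% to 95.6% of control. None reached 1.5-fold, and the largest fall was 1.31-fold once 16 was added to both intensities. Where a pair of intensities is given below, the control value comes before the knockdown value. All genes were compared as the log2 difference, knockdown minus control, of intensity + 16. Each gene took the value of its brightest probe set (by the mean of the arrays) and was kept where that mean reached the median over the array, an intensity of about 108. Of 18132 genes, 12220 were kept, with a median difference of -0.0009 and quartiles of -0.08 and 0.11. Within a gene, the differences of its probe sets at or above the filter had an SD of 0.09 about their mean. This was taken over 5786 genes with more than 1 such probe set. That SD covers the scatter between probe sets of a gene alone, and does not measure how far a gene may differ between cultures. Probe sets of a gene are read from the same RNA and are not replicates. Of 12 colon epithelium markers 9 were kept, and VIL1, CEACAM5 and TFF3 lay below the filter. Among the general epithelial ones, EPCAM (1342 and 1480) and KRT19 (2619 and 3045) were bright. CDH1, another of these, was much dimmer at 378 and 390. The intestinal ones LGR5 (117 and 107), CDX1 (163 and 156) and CDX2 (233 and 240) were dimmer. Of these named markers, only KRT19 lay above the range of the background controls on the control array. The 23 background controls, probe sets with no human target, ran from 31.2 to 1425 on the control array as their G and C bases rose from 3 to 25, so background is still part of the intensities.

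BDNF was higher in the knockdown array on each of its 5 probe sets. Its brightest, 11753244_a_at, read 398 in control cells and 825 in knockdown cells, 207% of control. The probe set 11733751_s_at read 144 and 279, and 11735902_a_at read 97.6 and 186. The dimmest ones, 11734642_a_at and 11733750_a_at, read 95.1 and 153, and 93.2 and 148. Every knockdown value thus lay above its own control value, by 54.9 to 427 intensity units. In RNA from a whole culture, more BDNF transcript per cell and more cells that carry it cannot be told apart.

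On the log2 scale the BDNF differences were 1.02, 0.89, 0.83, 0.61 and 0.59 in the same order, with a median of 0.83. The 1 probe set past 2-fold was 2.03-fold higher, and the lowest difference lay just past 1.5-fold, which is 0.58 on this scale. All 5 were at least 1.5-fold higher, against 0.149% of all 44988 probe sets. Among 2040 genes with 5 or more probe sets, BDNF was the only gene with all of them at least 1.5-fold higher, 0.049% of these genes, whereas 11.6% had all probe sets higher by any amount. EZR, which encodes the membrane-to-actin linker ezrin, came next, with a lowest difference of 0.57. It was named after its values were seen.

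The dimmer a BDNF probe set, the smaller its difference. The scatter of the 5 differences around their mean had an SD of 0.19, above the 0.09 of probe sets at or above the filter. The ratio of the knockdown to the control intensity ran from 159% to 207%. When the lowest intensity of each array, 30.8 and 29.97, was subtracted first, the ratio ran from 1.89 to 2.34 and the brightest probe set, at 2.16, no longer had the highest value. On the control array 3 of the 5 probe sets lay under the filter intensity, and they passed through their knockdown values. The 4 dimmer probe sets read between 93.2 and 144 on the control array, where 9 or 10 of the 23 background controls were brighter. On the same array 4 background controls were brighter than the brightest BDNF probe set. The GC content of the BDNF probes is not known here.

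**Figure D1:**
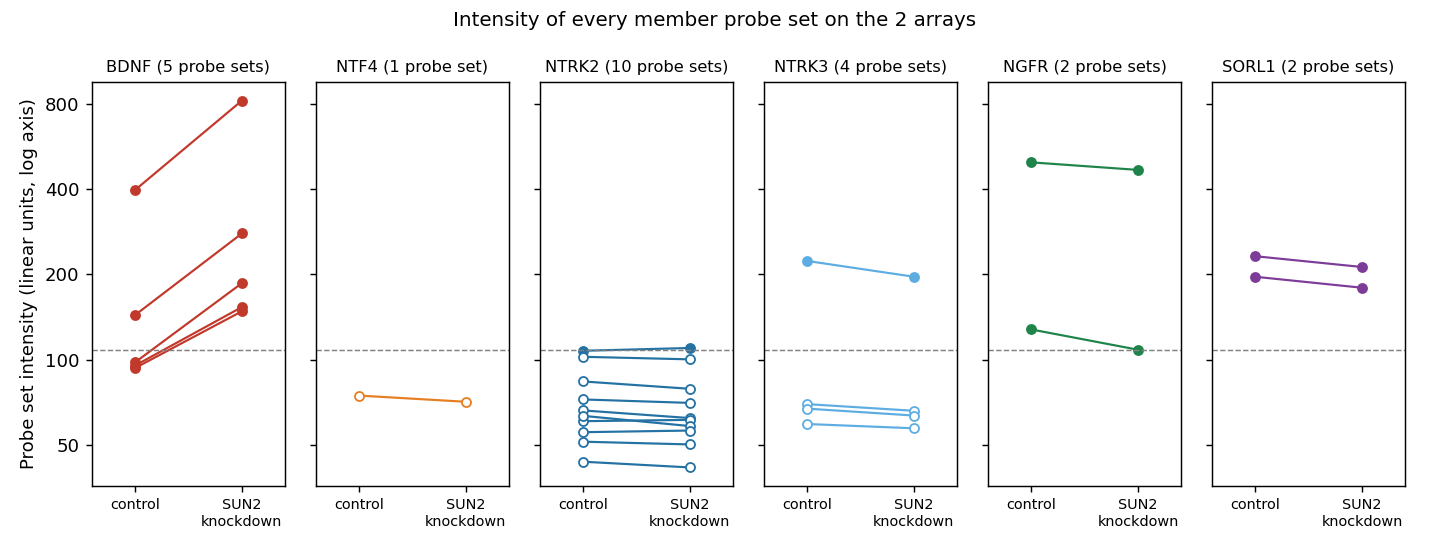
Intensity of the 24 member probe sets (linear units on a log axis) on the control and the SUN2 knockdown array, 1 panel per gene; each line is a probe set, filled points lie at or above the filter of 108 (dashed line) by their mean and open points below it. The 5 BDNF lines climb, the brightest from 398 to 825, while the lines of the other 5 genes are nearly flat.

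NTF4, which encodes the other TrkB ligand, was measured by 1 probe set, below the filter. It read 74.5 and 70.8, a log2 difference of -0.06. At this intensity 11 of the 23 background controls were brighter, so without the GC content of its probes an NTF4 transcript could not be told from background.

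NTRK2, the gene of the TrkB receptor, stayed near its control value on all 10 of its probe sets. The brightest read 107 and 110, a log2 difference of 0.03, and was the only one at or above the filter. The other 9 read between 43.5 and 102 on the control array. Over all 10 the difference ran from -0.10 to 0.03 with a median of -0.03, and 7 were lower and 3 higher. The background controls brighter than these probe sets on the control array numbered from 9 to 14. A low NTRK2 level could not be told from background at these intensities, and a change in such a level was not detectable.

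NTRK3, the gene of the neurotrophin 3 receptor TrkC, was lower on all 4 of its probe sets by small amounts. The 1 probe set at or above the filter read 223 and 196, a log2 difference of -0.17. The other 3 read between 59.1 and 69.5 on the control array, and their differences lay between -0.07 and -0.04. On the control array 7 of the 23 background controls were brighter than the brightest NTRK3 probe set. The brightest NTRK3 probe set thus differed more than the 3 dim ones.

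NGFR, which encodes the p75 receptor shared by all neurotrophins, was lower on both of its probe sets. The brighter read 499 and 469, a log2 difference of -0.09, and the dimmer read 128 and 108, a difference of -0.21. On the control array 4 background controls were brighter than the former and 9 brighter than the latter. The difference of -0.21 is the lowest of any member probe set.

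SORL1, the sorting receptor with a VPS10 domain, was lower by nearly the same amount on both probe sets. They read 232 and 213, and 196 and 179, with log2 differences of -0.12 each, and 7 background controls were brighter than either on the control array. No receptor gene came near 1.5-fold. The values of NTRK3, NGFR and SORL1 stayed below 0 under all 14 other settings of scaling, pseudocount, background, probe set choice and filter. Several of these settings could not turn the sign. The filters, and leaving out probe sets with _x_at or _s_at names, kept the same values. A pseudocount keeps the sign, and every probe set of these genes was lower, so their means and medians had to be.

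**Figure D2:**
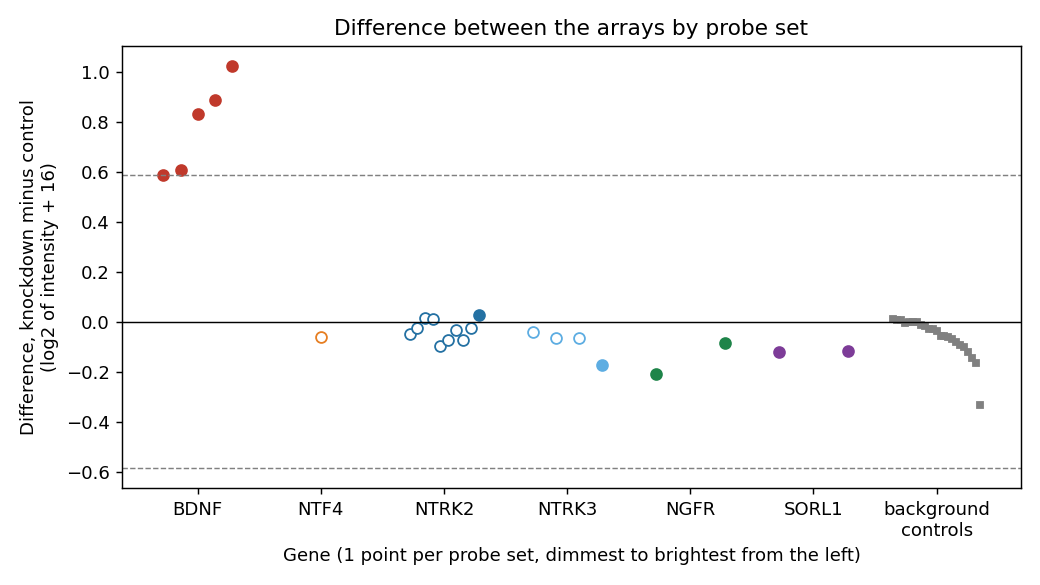
Log2 difference of each member probe set, knockdown minus control (filled, at or above the filter; open, below it), ordered within a gene from dimmest to brightest on the control array, with the 23 background controls (grey) in order of GC content; dashed lines mark 1.5-fold. BDNF probe sets lie between 0.59 and 1.02, those of the other members between -0.21 and 0.03, and the background controls between -0.33 and 0.01.

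Across the 4 receptor genes, 15 of 18 probe sets were lower, with a median difference of -0.06. None reached 1.5-fold, against 0.149% of all probe sets at least that much higher and 0.0133% lower. Below the filter, 10 of 12 receptor probe sets were lower, against 66.4% of all probe sets below it, and their differences reached -5.05 intensity units. At or above the filter, 5 of 6 were lower, against 49% of all probe sets there. The brightest BDNF probe set differed from the median of the receptor probe sets by 1.09 on the log2 scale.

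Other probe sets moved with the receptors. Of the 23 background controls, 20 were lower on the knockdown array, with differences from -0.33 to 0.01 and a median of -0.04. The difference grew with their intensity: the controls with 19, 21 and 22 G or C bases, at 236, 367 and 595 on the control array, differed by -0.08, -0.10 and -0.12. Neuron markers were also lower: all 7 kept of 11 listed, between -0.16 for the synaptic protein gene SNAP25 and -0.02, with a summed intensity of 1933 in control cells and 1808 in knockdown cells. Over all genes kept, 50.2% were lower. Markers of glia, fibroblasts, immune, endothelial and neuroendocrine cells were lower for 9 of the 11 kept of 30 listed, with differences between -0.14 and 0.10. None of the neuron markers is listed at 0, as no probe set on these arrays is. The part of background and of these markers in the receptor values was not tested.

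Among the 8 genes, 5 were kept by the filter and 1 of these, BDNF, was at least 1.5-fold higher, against 0.336% of the 12220 genes. It also passed 2-fold, against 0.0736%. No member was 1.5-fold lower, against 0.0245%. In the order of differences BDNF stood at place 8 from the top of 12220 genes. From the bottom, NTRK3 stood at place 523, SORL1 at 1623 and NGFR at 2768, and NTRK2 lay in the middle of the range. These places rest on the brightest probe set of each gene. For NTRK3 that was -0.17, whereas the mean over its 4 probe sets was -0.085.

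**Figure D3:**
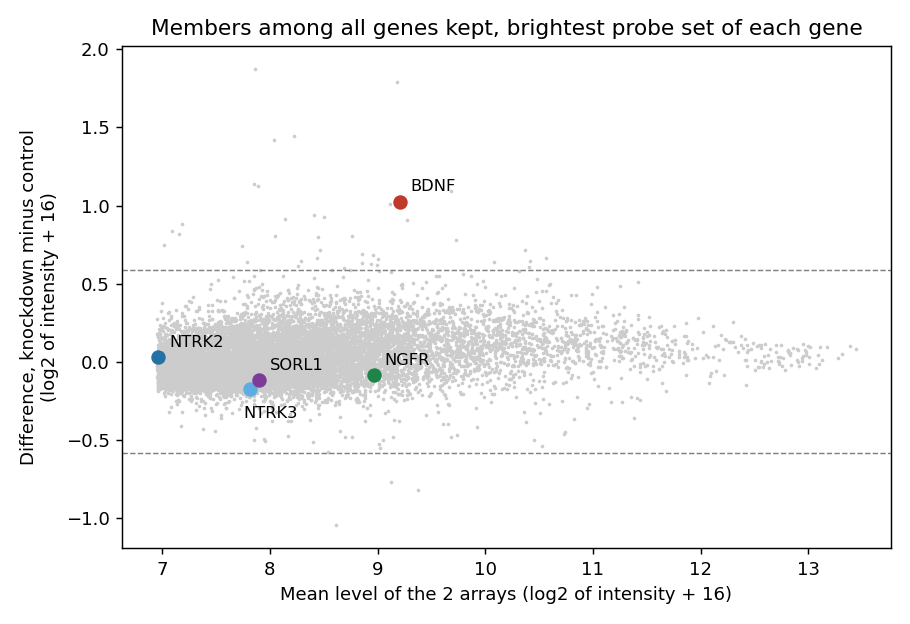
Log2 difference (knockdown minus control) against the mean log2 level for the 12220 genes kept, each at its brightest probe set (grey), with the 5 kept members in colour and dashed lines at 1.5-fold. BDNF, at 1.02, lies above nearly all genes, and the 4 receptor genes lie within the cloud, from -0.17 to 0.03.

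The 5 genes with a difference closest to that of BDNF were taken as the most like it, over 2 arrays only. They were the annexin gene ANXA3 (1.01), the interferon-induced genes IFI27 (1.09) and IFI6 (0.93), the epithelial transcription factor gene EHF (0.94) and the histone H2B gene H2BC5 (1.13). ANXA3 read 374 and 769, with both kept probe sets higher, by 0.89 and 1.01. EHF probe sets disagreed, as its 3 kept ones ran from -0.04 to 0.94, and IFI27 stood at 0.42 on its other probe set. IFI6 had 1 kept probe set, and H2BC5 had 2, at 1.13 and 1.25.

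The protein-coding neighbours of BDNF on chromosome 11 differed by less. LIN7C, which encodes a scaffold protein of cell junctions and lies next to BDNF on the side of lower coordinates, read 466 and 596 on its 1 probe set, a difference of 0.34. On the other side, the kinesin gene KIF18A read 150 and 179 (0.23), and the brightest of 3 probe sets of METTL15, a mitochondrial ribosomal RNA methyltransferase gene, read 371 and 448 (0.26). The potassium channel gene KCNA4 differed by -0.09, and both probe sets of LGR4, a receptor for R-spondins, lay below the filter at -0.10 and -0.11. The other METTL15 probe sets, both below the filter, stood at 0.16 and -0.01. No neighbour reached 1.5-fold, and the closest in size to BDNF was LIN7C. CCDC34 and BDNF-AS, the antisense gene that overlaps BDNF, were not analysed here.

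The machinery that matures and releases BDNF showed 1 sizeable difference. SCG2, which encodes the granule protein secretogranin II, read 171 and 252 on its 1 probe set, a log2 difference of 0.51. The protease gene PLAU differed by 0.17 and the convertase gene PCSK5 by 0.11. Of 18 listed genes 9 were kept, 5 higher and 4 lower, with 0 past 1.5-fold in either direction. Over all genes kept, 0.336% were at least 1.5-fold higher, 0.0245% at least 1.5-fold lower, and 50.2% lower by any amount. At these shares a list of such length mostly holds 0 genes past 1.5-fold, here and in the lists below. The list median was 0.05, and it turned to -0.04 with no filter and to -0.03 with the 25th percentile filter. FURIN, the convertase gene, was among the lower ones: it read 301 and 281.

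Further parts of the neurotrophin system differed little. Of 11 genes listed beside the members, 7 were kept and 0 passed 1.5-fold, against 0.336% higher and 0.0245% lower over all genes kept. The kept genes ran from -0.06 for LINGO1, a partner of the p75 receptor, to 0.11 for KIDINS220, a scaffold of Trk receptors. NDFIP1, an adaptor of NEDD4-type ubiquitin ligases, differed by 0.06. The median was 0.03, and it lay below 0 under 6 of 14 other settings, down to -0.066 after quantile normalization.

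Trk signalling genes were spread on both sides of 0, as were all genes kept, of which 50.2% were lower. Of 35 listed, 21 were kept, 13 higher and 8 lower, with a median of 0.01 and 0 past 1.5-fold. The kinase gene MAP2K1 differed most, by 0.26 on its brightest probe set, although its 3 kept probe sets ran from -0.10 to 0.26. The phosphatase gene PTPN11 differed by 0.22 and the kinase gene PDPK1 by -0.18, each on 1 kept probe set.

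Genes of p75 receptor signalling had 18 of 20 members kept, 10 higher and 8 lower, with a median of 0.02 and 0 past 1.5-fold. The share of lower genes was 50.2% over all genes kept. SQSTM1, a scaffold that binds TRAF6, was higher on all 5 of its probe sets, by 0.03 to 0.37. The kinase gene IRAK1 differed by 0.28 on 1 probe set. MAPK9, which encodes the kinase JNK2, differed by -0.30 on its brightest probe set and by 0.08 on its other kept one.

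Genes of sortilin family trafficking were all kept, 16 of 16, with 11 higher, 5 lower, a median of 0.03 and 0 past 1.5-fold. For comparison, 50.2% of all genes kept were lower. The retromer subunits VPS35 and VPS26A, which return sortilin-type receptors to the Golgi, differed by 0.18 and 0.17. All 3 kept VPS26A probe sets were higher, from 0.14 to 0.22, whereas those of VPS35 ran from -0.03 to 0.18. GRN, which encodes the sortilin ligand progranulin, was lower on all 3 of its probe sets, by between -0.25 and -0.21.

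Regulators of BDNF transcription were kept for 21 of 25 genes, 8 higher and 13 lower, with a median of -0.04 and 0 past 1.5-fold. Over all genes kept, 50.2% were lower. USF2, an E-box binding factor, differed by 0.30, with its 4 kept probe sets from 0.04 to 0.30. MEF2A differed by 0.27 and the coactivator gene CREBBP by 0.25, and each had 1 kept probe set below 0 and 3 above it. CREB1 itself differed by -0.02, and REST, a repressor of neuronal genes, by -0.06.

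Genes that neuronal activity and CREB induce together with BDNF were mostly lower here. Of 18 listed, 13 were kept, 11 lower and 2 higher, with a median of -0.10 and 0 past 1.5-fold, and 50.2% of all genes kept were lower. EGR1 read 654 and 465, a log2 difference of -0.48, and all 3 of its kept probe sets were lower, from -0.55 to -0.24. VGF, the gene of a neurotrophin-inducible secreted peptide precursor, read 367 and 301, with -0.27 and -0.25 on its 2 probe sets. NR4A2, an orphan nuclear receptor gene, went the other way by 0.25. Background controls at 236 and 367 on the control array differed by -0.08 and -0.10, and the kept neuron markers had a median of -0.10. The part of background in the values of this list was not tested. The list median stayed below 0 under all 14 other settings, although a pseudocount cannot turn the sign of a gene.

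Neurotrophic factors of other families and their receptors had 12 of 16 members kept, 6 on each side of 0, with a median of -0.01 and 0 past 1.5-fold. Among all genes kept, 50.2% were lower. The largest differences were -0.17 for CNTFR, the receptor gene of ciliary neurotrophic factor, -0.16 for PSPN, the gene of persephin, and -0.13 for GFRA2, the receptor gene of neurturin.

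**Figure D4:**
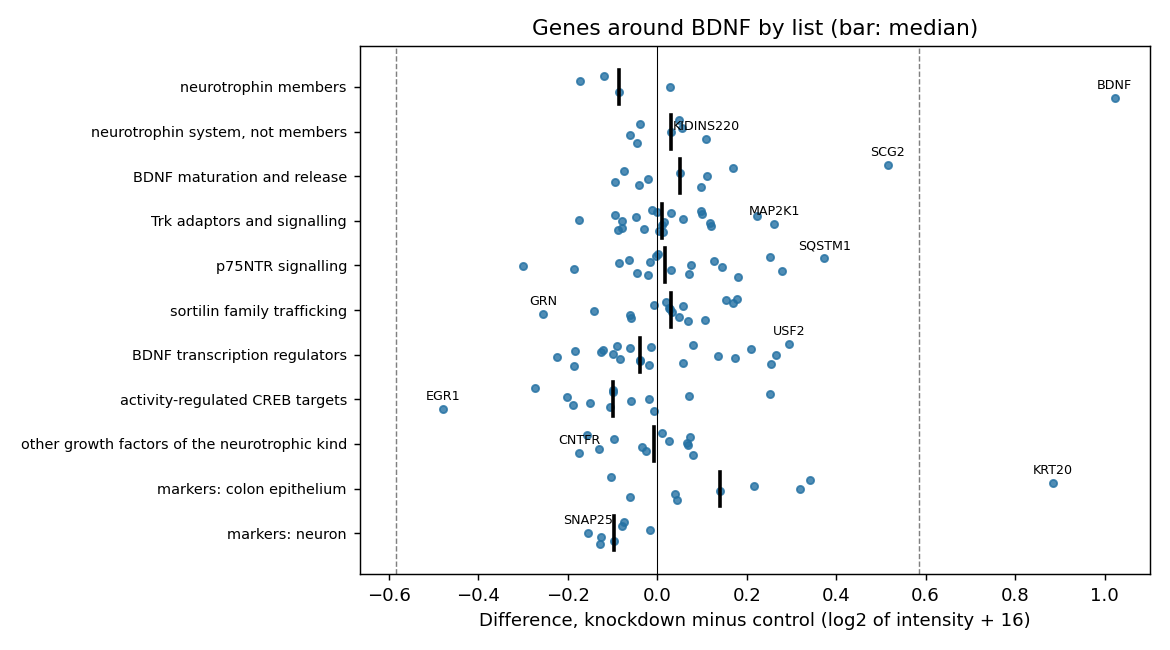
Log2 difference (knockdown minus control) of each kept gene at its brightest probe set, by list, with the list median as a black bar, the gene with the largest difference named, and dashed lines at 1.5-fold. BDNF and the keratin KRT20 are the only genes past 1.5-fold, and the next in size are SCG2 (0.51) and EGR1 (-0.48).

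Markers of the epithelial cell type were in part higher. Of the 9 kept colon epithelium markers, 7 were higher and 2 lower, against 50.2% lower over all genes kept. Their median was 0.14, with a summed intensity of 7855 in control cells and 9263 in knockdown cells. KRT20, a keratin of differentiated colonocytes, read 91.1 and 182, a difference of 0.88. It was the only marker of the list past 1.5-fold, against 0.336% of all genes kept at least that much higher. Its control value lay under the filter intensity, and it was kept through its knockdown value. KRT8 and KRT18 differed by 0.34 and 0.32 on their brightest probe sets. All 8 KRT8 probe sets were higher, from 0.34 to 0.58, and both of KRT18, by 0.28 and 0.32. The list median moved from 0.14 to between 0.03 and 0.04 under 6 of 14 other settings: quantile normalization, loess, the median of probe sets, leaving out the _x_at and _s_at classes, no filter and the 25th percentile filter. The part of cell state in the BDNF value was not tested.

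**Figure D5:**
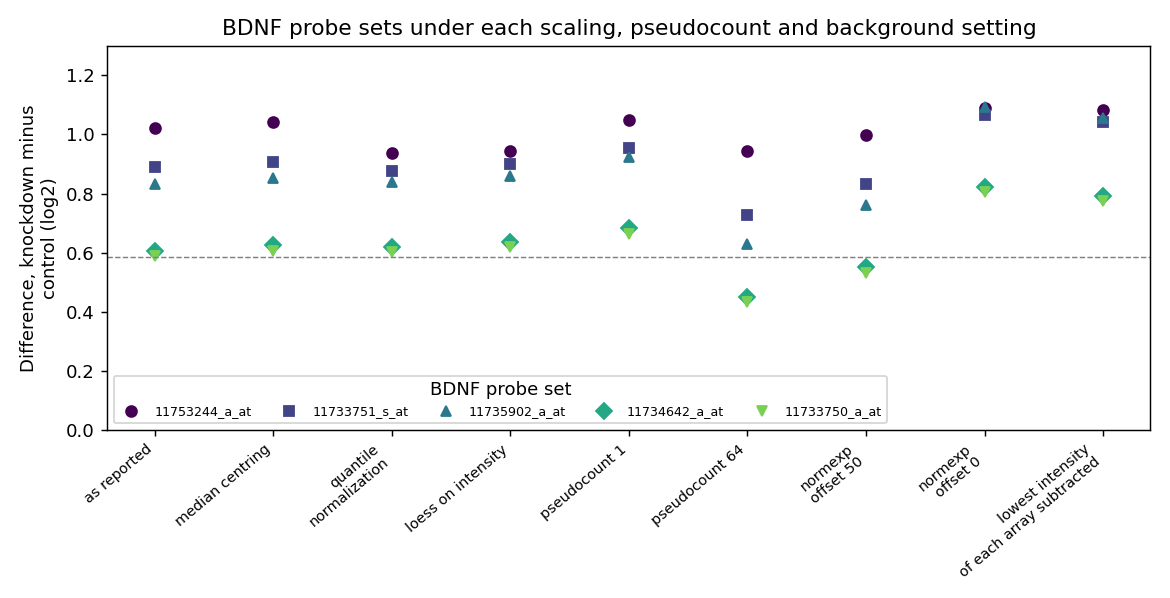
Log2 difference (knockdown minus control) of each of the 5 BDNF probe sets under the setting of this report and 8 other settings of scaling, pseudocount and background; the dashed line marks 1.5-fold. All points lie above 0, between 0.43 and 1.09, and the 2 dimmest probe sets fall below 1.5-fold with a pseudocount of 64 and with normexp at an offset of 50.

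The size of the BDNF difference depended on how background was treated. At a pseudocount of 64 the dimmest probe set stood at 0.43 and the brightest at 0.94, and with normexp background correction at an offset of 0 they stood at 0.80 and 1.09. Of the 14 other settings, 4 could not change the gene value of BDNF, as they left its brightest probe set as it was. Under the other 10 BDNF was at least 1.5-fold higher each time and at least 2-fold higher under 4. The mean and the median of its probe sets had to pass 1.5-fold, as each probe set did.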

How the data were processed

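The authors deposited probe set intensities on a linear scale for 2 arrays. Input was 100 ng of RNA, per the labels. MAS5 and RMA are both listed in the submitters' processing notes without a stated role, and how the arrays were scaled to each other is unknown. Control probe sets (102) were set apart. Gene symbols came from the platform annotation and were updated by Entrez ID through RefSeq (GRCh38.p14) for 44961 of 44988 probe sets with 1 symbol, while 1832 with several symbols and 2473 with none were left out. Differences were taken on the log2(intensity + 16) scale. Calls are fixed sizes of 1.5-fold and 2-fold, since no test is possible with 1 array per group. The member genes and all lists were chosen with earlier results of these data known. Named genes were all member probe sets, SUN2, the 3 coding neighbours of BDNF on each side and BDNF-AS, the 5 genes nearest BDNF in difference, and, from each list, genes past 1.5-fold and the 3 with the largest difference. FURIN, CREB1, REST and EZR were added by function or after their values were seen. The same holds for the markers EPCAM, CDH1, VIL1, CEACAM5, TFF3, KRT19, LGR5, CDX1, CDX2, KRT8 and KRT18. Promoter windows came from the RefSeq table, without the bases after each start. The steps were tested on simulated data. Other settings were median centring, quantile normalization, loess, pseudocounts of 1 and 64, normexp (limma 3.58.1), other probe set rules and other filters. The number of arrays limits the precision.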

Additional observations from a re-analysis of the deposited data

How the results depend on the processing

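No paired analysis was possible because there is only 1 array per group; leaving one out was not possible either. The BDNF value of 1.02 could change under 10 alternatives and stayed above 0. Under some of these the sign was fixed in advance. A pseudocount keeps the sign, and every BDNF probe set was higher, so their mean and median had to be. BDNF stood at 0.79 with the mean of all its probe sets. It stood at 0.83 with the median of those at or above the filter, which include 3 that pass the filter only through the knockdown array. BDNF minus the receptor median, at 1.09, was 0.98 after quantile normalization, 0.98 after loess, 0.98 with a pseudocount of 64, 0.85 with the mean of all probe sets, 0.90 with the median of those at or above the filter and 1.19 with normexp at an offset of 0. The count of members past 1.5-fold was 1 throughout. NTRK2 turned to -0.03 with the mean of its probe sets. Of 126 list medians under alternatives, 125 moved by less than the probe set SD of 0.094, and the genes listed beside the members moved to -0.066 after quantile normalization. The sign of a list median turned in 14 of the 126. Normexp at an offset of 0 and subtraction of each array's lowest intensity were chosen after seeing the data.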
